A study of Mus musculus with 6 samples.

Results

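The genes described here are the mouse genes whose symbol is Gpr followed by a number, the placeholder name given to G protein-coupled receptors found by sequence before a ligand was known. They were chosen by symbol alone: every probe set whose platform annotation names exactly 1 gene, with a symbol made of Gpr, a number and at most 1 further letter and 1 further digit. This gave 91 of the 45101 probe sets on the array and 59 of the 18190 genes compared, and 1 further gene with such a symbol is not analysed here. Another 5 probe sets name a numbered Gpr gene together with a second gene and were not used.

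Expression was measured in 2 tissues of male C57BL/6J mice aged 3 months, the lumbar dorsal root ganglia (DRG) and the lumbar spinal cord (SC), both from levels L1 to L6 with the left and right sides pooled. Each tissue had 3 arrays, and each array carried RNA pooled from 4 mice, so single animals are not resolved. The labels give no treatment and no genetic change for either tissue. A DRG holds the cell bodies of sensory neurons with satellite glia, Schwann cells and connective tissue, while the spinal cord holds central neurons with oligodendrocytes, astrocytes and microglia.

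G protein-coupled receptors pass 7 times through the membrane and signal through heterotrimeric G proteins, arrestins and receptor kinases. The numbered Gpr genes are not one family by descent. Some have since been paired with lipids, protons, oxysterols or peptides, others signal without a known ligand, and a further set encodes proteins of the Golgi or lysosome that were given the name for their membrane topology. In nervous tissue several of them are known from particular cell types, such as Gpr17 and Gpr37 from the oligodendrocyte lineage and Gpr37l1 from astrocytes.

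All values below are array signals in arbitrary units, recovered from the deposited ratios and kept on the authors' array scaling. Differences are DRG minus SC on log2(signal + 16), given with the standard error, and p-values are from limma with Benjamini-Hochberg adjustment over 45028 probe sets. A gene is called when its adjusted p is under 0.05, and it is read from its probe set with the highest mean. Signals of different probe sets cannot be set against each other. As a guide to what a weak signal is worth, the 95th percentile of 51 probe sets of 38 genes not expected in either tissue was taken on each array, and it lay between 146 and 217. It was 163, 217 and 185 on the DRG arrays and 163, 164 and 146 on the SC arrays. Each array was set against its own level, so equal signals can pass on an SC array and not on a DRG array. Folds are ratios of the geometric mean signals, without the added 16, so they do not follow exactly from the printed differences. Where the dimmer tissue never rose above that level, the fold is printed as a lower bound, and none is printed where neither tissue stood above it.

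Across the numbered Gpr genes the tissues differed in both directions. Of the 59 genes, 15 (25.4%) were called higher in DRG, 13 (22.0%) were called higher in SC and 31 were not called. Among all 18190 genes, the shares were 31.8% toward DRG and 9.69% toward SC. The median difference of the 59 genes was 0.02, against 0.18 for all genes. Differences of at least 2-fold, a log2 difference of 1, were called for 7 genes toward DRG and 9 toward SC, where the shares over all genes were 11.5% and 4.77%. Arrays of the tissues did not overlap for 36 of the 59 genes (61.0%), against 51.7% of all genes. By probe set, 19 of 91 were called toward DRG and 17 toward SC, against 22.7% and 9.79% of all probe sets.

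**Figure D1:**
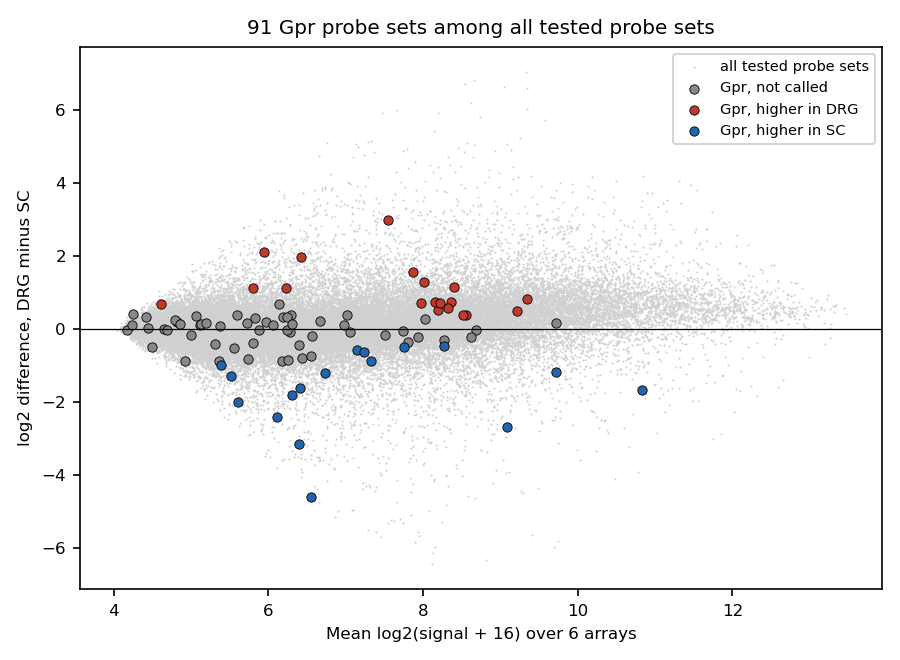
Each point is a probe set, with its mean log2(signal + 16) over the 6 arrays on the x axis and its log2 difference DRG minus SC on the y axis, in grey for all tested probe sets and in colour for the 91 of numbered Gpr genes. The Gpr probe sets reach from -4.59 (Gpr62) to 2.98 (Gpr35), and many uncalled ones lie at low signal.

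Much of this family was dim on these arrays. For 32 of the 59 genes (54.2%) no array of either tissue exceeded that level, against 41.8% of all genes. Of these 32 dim genes, 3 (9.38%) were called toward DRG and 5 (15.6%) toward SC, against 31.8% and 9.69% of all genes at any signal. Another 21 genes were above the level on an array of both tissues, 3 in DRG alone and 3 in SC alone.

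The split between the directions depended on how arrays were scaled. The deposited scaling places the median gene at 0.18, quantile normalization at 0.04 and signals before the authors' array scaling at -0.10. Before that scaling, the array means without extreme signals (trimmed means) were already nearly equal. They were 247.27 to 247.31 for DRG and 247.48 to 247.51 for SC, while the medians were 82.6 to 87.5 and 108.3 to 109.95. The setting before the array scaling thus compares arrays of equal trimmed mean and is not free of scaling. On the deposited scaling 15 genes were called toward DRG and 13 toward SC, with 11 and 17 after quantile normalization, and 10 and 20 before the array scaling. The shares over all genes were 20.5% and 16% with quantile normalization, and 19.3% and 19.7% before the array scaling. By probe set, 11 and 29 were called before the array scaling, against 13.3% and 19.9% of all probe sets. All 13 genes called toward SC kept their call and direction on both other scalings. Of the 15 called toward DRG, 11 kept it with quantile normalization and 10 without the array scaling, and none was called in the opposite direction. The 4 lost on both were Gpr19, Gpr135, Gpr137b and Gpr176, and Gpr75 was lost before the array scaling.

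**Figure D2:**
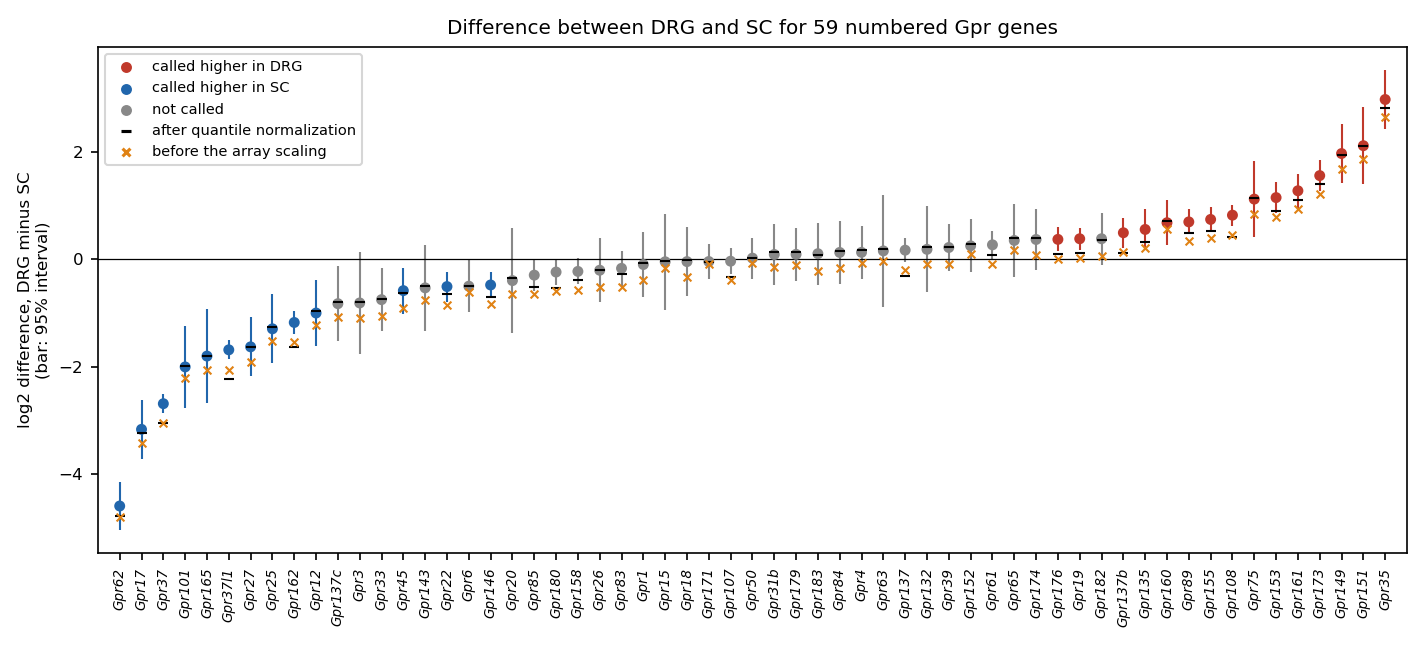
The log2 difference DRG minus SC of each of the 59 genes, in order of size, is drawn as a point with its 95% interval, with the same difference after quantile normalization (dash) and before the array scaling (cross). The 13 genes called toward SC reach from -4.59 to -0.48 and stay below 0 under all 3 scalings, and the small positive differences of Gpr19 and Gpr176 lie closer to 0 under the other scalings.

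The 3 largest differences toward SC were those of Gpr62, Gpr17 and Gpr37, receptors known from the oligodendrocyte lineage. Of the 4 measured genes listed as glial receptors, 3 were called higher in SC and 0 in DRG, against 9.69% and 31.8% of all genes. Gpr62, an orphan receptor known from oligodendrocytes, had been listed with the neuronal receptors. Because these are bulk tissues, fewer cells of a type and less RNA per cell cannot be told apart, here and in all comparisons that follow.

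Gpr62 had signals of 422, 455 and 462 on the SC arrays and 3.2, 4.3 and 2.1 on the DRG arrays, the lowest of which is an upper bound. The tissues lay far apart, since all DRG arrays were near the bottom of the scale. The difference was -4.59 ± 0.20 (limma adjusted p = 2.26e-07), at least 2.38-fold higher in SC. Its second probe set was not above the level on any array and did not separate the tissues, at 0.14 (limma adjusted p = 0.857).

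Gpr17, a receptor of oligodendrocyte precursors on the way to becoming myelin-forming cells, measured 215, 259.8 and 237 in SC and 19.8, 10.4 and 7.8 in DRG. All 3 SC arrays exceeded the level of unexpected genes, and all 3 DRG arrays lay far below it. Its difference was -3.16 ± 0.24 (limma adjusted p = 7.96e-06), at least 1.26-fold higher in SC.

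Gpr37, a receptor of mature oligodendrocytes also known as a substrate of the ubiquitin ligase parkin, was measured above the level on all 3 SC arrays and 2 of 3 DRG arrays. Its signals were 1414, 1373 and 1303 on the SC arrays and 203, 203 and 189.7 on the DRG arrays. The arrays of each tissue were close together and the tissues did not overlap. The difference of -2.68 ± 0.078 (limma adjusted p = 2.53e-08) had the smallest adjusted p of the 59 genes, and the ratio of the signals was 6.87-fold higher in SC.

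Upstream sequence was examined for the genes that led each direction. RefSeq promoter windows of assembly GRCm38.p6 were matched by symbol for 46 of the 59 genes, and the 250 bases before each annotated start were searched on both strands for 4 short motifs: ACAAAG, the core bound by SOX factors; CAGCTG, an E-box; TAATTA, a homeodomain core; and GGGCGG, a GC box. The pair of genes with the largest called difference each way among those with a window are shown beside their values, 5′ to 3′ in the direction of the gene, with motif matches in capitals.

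Gpr62, chr9:106465986-106466235, minus strand: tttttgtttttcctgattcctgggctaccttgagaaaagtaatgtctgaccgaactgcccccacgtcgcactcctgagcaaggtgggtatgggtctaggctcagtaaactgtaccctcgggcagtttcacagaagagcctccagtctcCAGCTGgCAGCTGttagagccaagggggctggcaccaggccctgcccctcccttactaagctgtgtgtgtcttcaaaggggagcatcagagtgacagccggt

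Gpr37, chr6:25689981-25690230, minus strand: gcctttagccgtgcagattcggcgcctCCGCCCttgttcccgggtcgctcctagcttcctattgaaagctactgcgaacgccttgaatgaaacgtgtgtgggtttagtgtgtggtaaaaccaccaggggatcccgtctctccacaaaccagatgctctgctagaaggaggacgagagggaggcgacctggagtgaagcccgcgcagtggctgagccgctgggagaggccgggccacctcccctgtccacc

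Gpr37l1, the close relative of Gpr37 known from astrocytes, was also higher in SC but remained well measured in DRG. Its signals were 3288, 3232 and 3244 in SC and 907, 1049 and 1060.3 in DRG, so every array of both tissues stood above the level. The difference was -1.68 ± 0.077 (limma adjusted p = 3.17e-07), or 3.25-fold. Quantile normalization gave -2.22 and the signals before the array scaling -2.05. Gpr39, a zinc-sensing receptor and the remaining gene of the glial list, was not above the level on any array and differed by 0.22 (95% interval -0.22 to 0.66, limma adjusted p = 0.459).

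The marker genes of these cell types moved in the same direction. Of 6 measured oligodendrocyte markers 5 were called higher in SC, and the summed signal of the 6 was 1224 to 1458 in DRG and 8188 to 8963 in SC. Most of the DRG sum came from Sox10, with a mean of 1069 there. Olig1, Olig2, Mobp, Opalin and Ermn were not above the level on any DRG array, while Sox10, which Schwann cells and satellite glia share, was not called (limma adjusted p = 0.992) and was called toward SC with quantile normalization, at -0.52, as well as without the array scaling, at -0.37. All 6 astrocyte markers were higher in SC, with sums of 531 to 642 in DRG and 18188 to 20274 in SC, and none was above the level on any DRG array. Of 5 markers of oligodendrocyte precursors 3 were higher in SC, 1 of them Gpr17 itself. The part of these marker differences in the differences of Gpr62, Gpr17, Gpr37 and Gpr37l1 was not tested.

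Toward DRG, the leading genes were Gpr35, Gpr151, Gpr149 and Gpr173, followed by Gpr161 and Gpr153. All 6 were called on every scaling and with any single array left out. In SC, 4 of the 6 were not above the level on any array, so their folds are bounds or are not given.

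Gpr35, a receptor known from gut, immune cells and sensory neurons for which kynurenic acid is a proposed ligand, measured 432, 502 and 598 on the DRG arrays but only 49.6, 31.4 and 78.1 on those of SC. The 3 DRG arrays all exceeded the level, and no SC array reached it. The difference was 2.98 ± 0.24 (limma adjusted p = 1.2e-05), at least 3.21-fold higher in DRG and the largest toward DRG among the 59 genes. With quantile normalization the difference came to 2.81, and without the array scaling to 2.65.

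The window before the first of the 2 annotated starts of Gpr35 is shown for the gene with the largest difference toward DRG.

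Gpr35, chr1:92972869-92973118, plus strand: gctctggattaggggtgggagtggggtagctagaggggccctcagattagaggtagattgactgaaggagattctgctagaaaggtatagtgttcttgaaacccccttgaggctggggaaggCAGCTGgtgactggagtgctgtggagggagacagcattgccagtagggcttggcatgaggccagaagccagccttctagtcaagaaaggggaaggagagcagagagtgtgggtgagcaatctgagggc

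Gpr151 and Gpr149 were higher in DRG at signals that hardly reached the level. Gpr151, an orphan receptor related in sequence to galanin receptors and known from habenula and sensory neurons, had signals of 87.2, 113 and 142 in DRG and 15.1, 24.5 and 4.4 in SC, a difference of 2.12 ± 0.32 (limma adjusted p = 0.00064). Gpr149, another orphan receptor, had 141, 128 and 197 in DRG and 34.2, 23.9 and 24.1 in SC, a difference of 1.97 ± 0.24 (limma adjusted p = 0.000189). In both genes the DRG arrays lay above all SC arrays, yet only 1 DRG array of Gpr149 and none of Gpr151 exceeded the level, and no fold is given. The second probe set of Gpr149 was called in the same direction, with 84.2, 31.5 and 98.6 in DRG, 21.8, 19.5 and 24.1 in SC and a difference of 1.11 (limma adjusted p = 0.0361), a call lost before the array scaling (limma adjusted p = 0.0813).

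Gpr161, a receptor of the primary cilium that restrains Hedgehog signalling, measured 432, 338 and 390.1 in DRG and 129.9, 146 and 175 in SC. Every DRG array exceeded every SC array, and the difference was 1.28 ± 0.14 (limma adjusted p = 8.59e-05). The fold was 2.58 higher in DRG, though only 1 of the 3 SC arrays was above the level. Its second probe set was dim, with arrays that overlapped and a difference of -0.42 (limma adjusted p = 0.604). Taking the mean of both probe sets gave 0.43 and ended the call (limma adjusted p = 0.264). Of the other genes listed as ciliary, Gpr19 was called toward DRG, and Gpr63 and Gpr83 were not called.

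The related orphan receptors Gpr153 and Gpr162, whose ligands are unknown, differed in opposite directions. Gpr153 had signals of 418, 543 and 517 in DRG and 200.4, 237 and 199.9 in SC, a difference of 1.15 ± 0.12 (limma adjusted p = 7.8e-05) or 2.31-fold higher in DRG. Gpr162 had signals of 522, 630.3 and 493 in DRG and 1269.9, 1279 and 1205 in SC, a difference of -1.17 ± 0.096 (limma adjusted p = 1.25e-05) or 2.29-fold higher in SC. Both genes were above the level on all 6 arrays, and the tissues did not overlap for either. Their opposite signs held on the other scalings, with 0.90 and -1.63 with quantile normalization, and 0.80 and -1.54 before the array scaling.

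**Figure D3:**
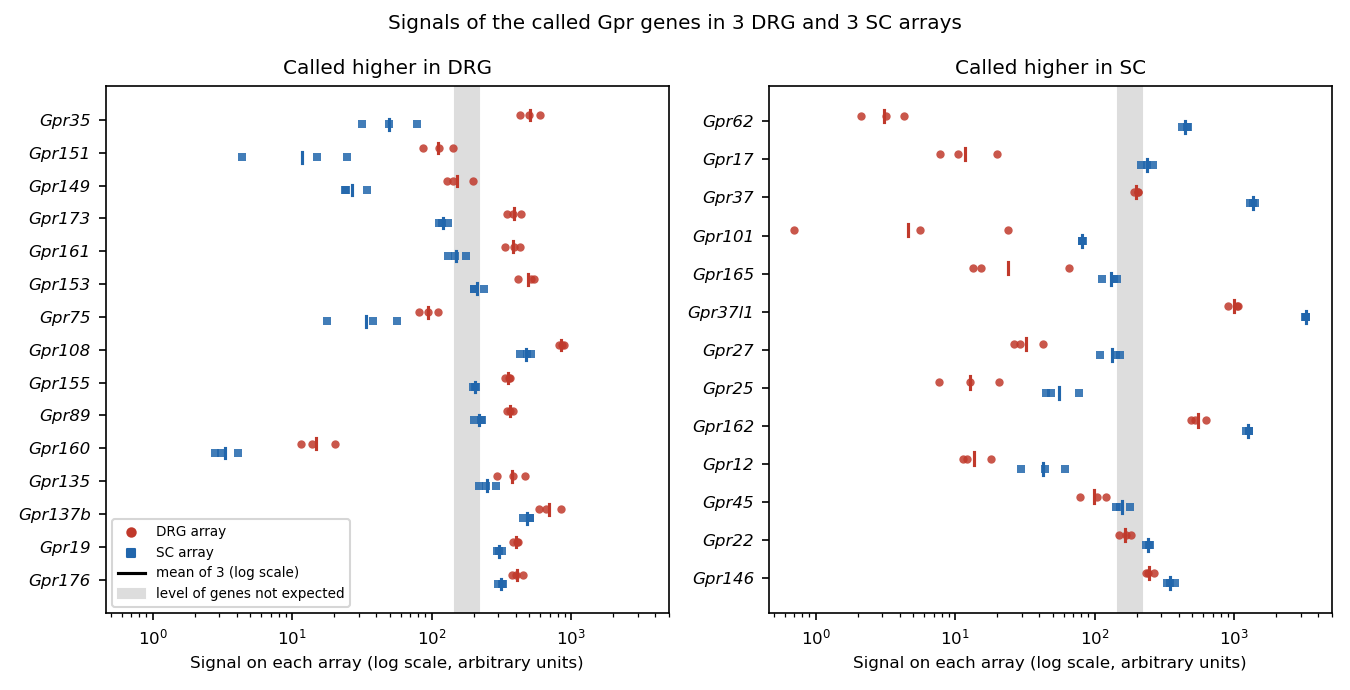
Signals on each array of the 15 genes called higher in DRG (left) and the 13 called higher in SC (right), on a log axis, with DRG arrays as circles, SC arrays as squares and bars at the geometric mean of 3; the grey band spans the level of genes not expected, 146 to 217. The circles and squares do not overlap for any of the 28 genes, and several genes, such as Gpr151, Gpr160, Gpr25 and Gpr12, stay below the band in both tissues.

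The SREB receptors, 3 highly conserved orphan receptors of brain, did not move together. Gpr173 was higher in DRG, with 436, 381 and 349 in DRG, 119, 113 and 131 in SC and a difference of 1.56 ± 0.13 (limma adjusted p = 1.17e-05), at least 2.46-fold. Gpr27 was higher in SC, with 26.2, 42.3 and 29.3 in DRG, 109, 150.5 and 142 in SC and a difference of -1.63 ± 0.24 (limma adjusted p = 0.000587), but no array exceeded the level. The tissues did not overlap for either gene. Gpr85 was not called on its brightest probe set, at -0.29 (95% interval -0.59 to 0.01, limma adjusted p = 0.134), whereas on the other scalings it was called toward SC, at -0.52 and -0.65. Of its 4 probe sets 1 was called, at -0.64 (limma adjusted p = 0.011), and 3 lay below 0.

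The window of Gpr173 is shown as the second of the DRG pair, because Gpr151 and Gpr149 had no RefSeq window.

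Gpr173, chrX:152368719-152368968, minus strand: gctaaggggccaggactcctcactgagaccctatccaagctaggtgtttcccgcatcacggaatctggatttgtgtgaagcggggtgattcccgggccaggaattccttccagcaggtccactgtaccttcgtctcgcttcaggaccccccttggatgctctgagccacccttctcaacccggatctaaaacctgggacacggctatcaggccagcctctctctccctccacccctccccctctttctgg

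The genes listed as neuronal class A orphans, rhodopsin-like receptors described mainly in brain, were called in both directions. Of 20 measured, 6 (30%) were called toward DRG and 6 (30%) toward SC, against 31.8% and 9.69% of all genes. Of the 20, 10 (50%) were not above the level on any array, against 41.8% of all genes. Besides Gpr62 and Gpr162, those higher in SC were Gpr101, Gpr165, Gpr45 and Gpr22. Besides Gpr151, Gpr149 and Gpr153, those higher in DRG were Gpr75, Gpr135 and Gpr19. Quantile normalization gave 4 against 6, and signals before the array scaling 3 against 7.

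Gpr101, a receptor known from hypothalamus and pituitary, had signals of 81.2, 81.8 and 81.3 in SC and 0.7, 5.6 and 24.0 in DRG. The SC arrays agreed closely while the DRG arrays scattered near the bottom of the scale, and the difference was -2.0 ± 0.34 (limma adjusted p = 0.00126). With the logarithm of the deposited ratio in place of the recovered signal the call was lost, at -4.17 (limma adjusted p = 0.0628). Gpr165 measured 144, 138 and 114 in SC and 13.4, 65.8 and 15.4 in DRG, a difference of -1.80 ± 0.39 (limma adjusted p = 0.00549). Neither gene exceeded the level on any array.

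Gpr45 was higher in SC on both of its probe sets. The brighter one had signals of 142, 153 and 178 in SC and 104, 78.4 and 119.8 in DRG, with a difference of -0.58 ± 0.19 (limma adjusted p = 0.0432). The other had 181, 139 and 116 in SC and 7.2, 11.1 and 26.6 in DRG, a difference of -2.41 ± 0.30 (limma adjusted p = 0.000208). The sizes were thus far apart for one gene, while the direction was shared. Gpr22, an orphan receptor of brain and heart, measured 243, 249.5 and 232 in SC and 181, 167 and 149 in DRG, a difference of -0.51 ± 0.12 (limma adjusted p = 0.0106).

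Gpr75, for which a chemokine and an arachidonic acid product have been proposed as ligands, had signals of 111, 81.1 and 94.7 in DRG and 56.5, 38.0 and 17.7 in SC, all under the level. The difference was 1.12 ± 0.31 (limma adjusted p = 0.0213). Gpr135 differed by 0.56 (limma adjusted p = 0.0294) and Gpr19 by 0.38 (limma adjusted p = 0.00871), but these fell to 0.32 and 0.12 after quantile normalization, and neither was called there. A second probe set of Gpr135 was called more firmly, at 0.70 (limma adjusted p = 0.00214), and was still called after quantile normalization at 0.53 but not before the array scaling (limma adjusted p = 0.06).

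Gpr3, Gpr6 and Gpr12, which raise cyclic AMP without added ligand, had differences below 0 and were not above the level on any array. Gpr12 was the only one called, with 43.6, 29.7 and 60.8 in SC, 17.9, 11.4 and 12.2 in DRG and a difference of -1.0 ± 0.27 (limma adjusted p = 0.0178). Its other 2 probe sets lay at -0.89 and -0.88 and were not called (limma adjusted p = 0.074 and 0.0523). Gpr3 measured 97.8, 105 and 93.4 in SC and 18.3, 114 and 46.8 in DRG, so that 1 DRG array exceeded every SC array, and it was not called at -0.81 (95% interval -1.77 to 0.15, limma adjusted p = 0.194). Without DRG replicate 2, the array with the high value, Gpr3 was called higher in SC at -1.30 (limma adjusted p = 0.0144). Gpr6 was not called at -0.50 (limma adjusted p = 0.114).

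Of the class C orphans, relatives of the metabotropic glutamate receptors, Gpr158 was above the level on all 6 arrays and Gpr179, a gene of retinal bipolar cells, on none. Gpr158, which binds the regulator Rgs7, had signals of 246, 261 and 241 in SC and 201, 219.7 and 213 in DRG. The tissues did not overlap, but the difference of -0.22 was not called (95% interval -0.47 to 0.02, limma adjusted p = 0.157). It was called toward SC with quantile normalization, at -0.39 (limma adjusted p = 0.0226), as well as without the array scaling, at -0.57 (limma adjusted p = 0.0032).

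None of the 6 measured proton-sensing and lysolipid receptors was called by limma, against 31.8% toward DRG and 9.69% toward SC over all genes. At an unadjusted p under 0.05 the count was also 0, and none of the 6 was above the level on any array. They were the proton sensors Gpr4 and Gpr65, Gpr132, Gpr18, Gpr31b and Gpr174. Their differences ran from -0.04 to 0.37, and the widest of these, for Gpr174, had signals of 100.1, 68.2 and 56.2 in DRG and 56.0, 52.5 and 50.2 in SC (95% interval of the difference -0.20 to 0.94, limma adjusted p = 0.328). That none was called does not show that the tissues are alike.

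The list made for immune cells also holds receptors of other peripheral cells. Of its 11 measured genes, 3 (27.3%) were called toward DRG and 2 (18.2%) toward SC, against 31.8% and 9.69% of all genes. The 5 were Gpr35, Gpr160 and Gpr176 toward DRG and Gpr25 and Gpr146 toward SC. Not all of them are known as immune genes. Gpr146 is known for its part in cholesterol metabolism of the liver and Gpr176 from the circadian clock of the brain. The 6 not called were Gpr15, Gpr33, Gpr84, Gpr171, Gpr182 and Gpr183, of which none was above the level on any array, and Gpr33 was called toward SC before the array scaling at -1.06 (limma adjusted p = 0.00995). Gpr183, which guides immune cells along oxysterols, measured 99.5, 129 and 118 in DRG and 67.3, 119.7 and 144 in SC. Of 8 markers of microglia and macrophages 4 were called toward SC and 2 toward DRG, with sums of 2274 to 2518 in DRG and 2740 to 3072 in SC, and of 6 measured markers of T and B lymphocytes none was called by limma, though 2 had an unadjusted p under 0.05. The part of those cells in the receptor signals was not tested.

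Gpr146 was called on 3 of its 4 probe sets, a gene named here after its values were seen. On the brightest, signals were 344, 328 and 376 in SC and 232, 266 and 241 in DRG, and the difference was -0.48 ± 0.10 (limma adjusted p = 0.00607). The other called probe sets lay at -0.89 and -1.20. Gpr176 had 378, 454 and 404 in DRG and 299.5, 319.6 and 323 in SC, a difference of 0.37 ± 0.098 (limma adjusted p = 0.0163) that shrank to 0.11 with quantile normalization and to 0.02 without the array scaling. Gpr25 was higher in SC at -1.29 and Gpr160 higher in DRG at 0.68 (limma adjusted p = 0.00627 and 0.0187), both under the level on all arrays.

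The list of intracellular and non-canonical membrane proteins, mostly of Golgi and lysosome but with Gpr143 and Gpr180 among them, was called toward DRG or not at all on the deposited scaling. Of 9 measured genes 4 (44.4%) were called higher in DRG and 0 in SC, against 31.8% and 9.69% of all genes. Of the 9, 7 were above the level in both tissues. Quantile normalization gave 3 against 2, and signals before the array scaling 3 against 3. The median difference was 0.17, close to the 0.18 of all genes, and turned to -0.30 and -0.19 on the other scalings.

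Gpr108, a Golgi protein, had signals of 853, 812 and 890.2 in DRG and 481, 512 and 433 in SC, a difference of 0.82 ± 0.086 (limma adjusted p = 6.07e-05) or 1.79-fold. Gpr155, a lysosomal protein that senses cholesterol, measured 361, 363 and 334 in DRG and 197, 206 and 209 in SC, or 1.73-fold (limma adjusted p = 0.000285). Gpr89, which regulates the pH of the Golgi, measured 366, 344 and 384 and 229, 226 and 201, or 1.67-fold (limma adjusted p = 0.00058). These 3 genes remained called toward DRG on both other scalings, at smaller differences of 0.42, 0.54 and 0.49 after quantile normalization. Gpr137b, a lysosomal protein, differed by 0.50 (limma adjusted p = 0.013), was not called on either other scaling, and 4 of the unused probe sets name it together with its pseudogene, so its signal may be shared. Gpr137 was not called at 0.17 (95% interval -0.05 to 0.39), but was called toward SC after quantile normalization at -0.30.

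Several genes were measured by more than 1 probe set. This held for 21 of the 59 genes, with up to 5 probe sets. On the deposited scaling no gene had probe sets called in opposite directions. All probe sets were called the same way in 2 genes, Gpr45 and Gpr149, some but not all were called in 11, and none in 8. Gpr107, a Golgi protein related to Gpr108 and singled out after its values were seen, had 1 called and 2 uncalled probe sets above the level in both tissues. Its brightest probe set gave 424, 409 and 348 in DRG and 423, 423 and 363 in SC, a difference of -0.03 (limma adjusted p = 0.866). A second gave 376, 411 and 447 in DRG and 242, 231 and 241 in SC, a difference of 0.75 ± 0.1 (limma adjusted p = 0.000302). In the first the arrays of the tissues overlapped, and in the second they did not. Before the array scaling both were called and in opposite directions, at -0.39 and 0.39 (limma adjusted p = 0.0221 and 0.0136).

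**Figure D4:**
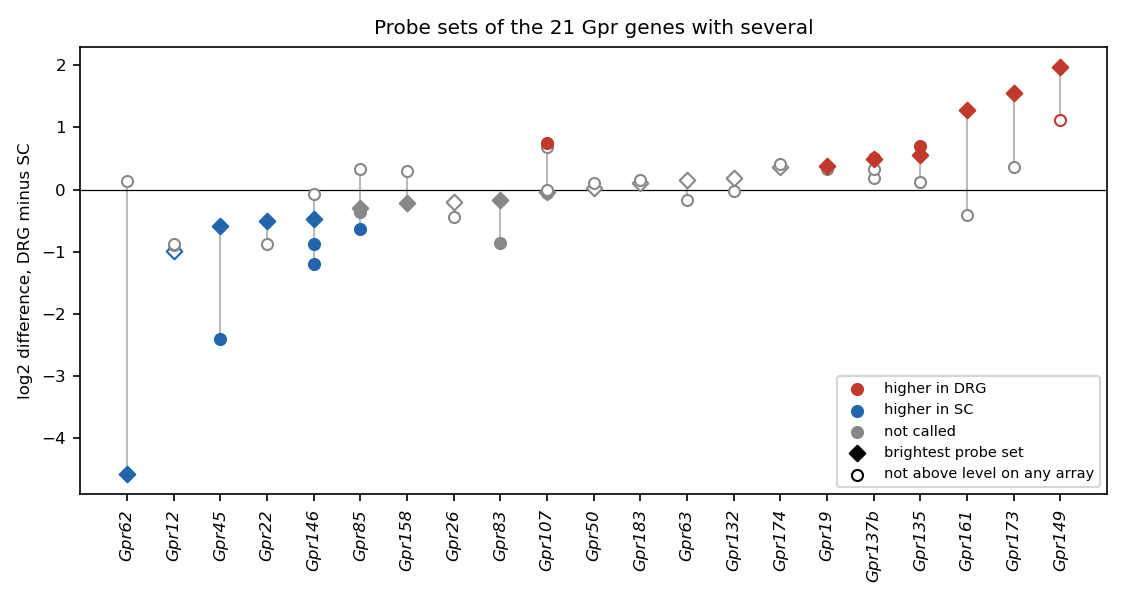
The log2 difference DRG minus SC of every probe set of the 21 genes that have several, with 1 column per gene, a diamond for the brightest probe set, open symbols for probe sets not above the level on any array, and colour for the call. The second probe sets of Gpr62, Gpr161 and Gpr173 are open symbols far from their brightest ones, while the 2 coloured probe sets of Gpr45 lie at -0.58 and -2.41.

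The remaining uncalled members divide into measured and dim genes. Gpr61, a brain orphan receptor, and Gpr180, a protein of the intracellular list, were above the level on all 6 arrays. Gpr61 had signals of 274, 252 and 283 in DRG and 242, 218 and 203 in SC (difference 0.27, limma adjusted p = 0.106). Gpr180 had 476, 377 and 388 in SC and 352, 324 and 366 in DRG (difference -0.24, limma adjusted p = 0.147) and was called toward SC on both other scalings, at -0.52 and -0.59. Gpr83, a ciliary receptor of brain, had signals of 165, 144 and 158 in DRG and 186, 193 and 153 in SC. It was above the level, which differs between arrays, on 3 SC arrays and 1 DRG array. A call toward SC was made for Gpr83 only before the array scaling, at -0.51. Gpr137c was likewise called only there, at -1.08, against -0.82 on the deposited scaling. It shares the absence of any array above the level with Gpr20, Gpr26, Gpr50, Gpr63, Gpr143, the melanosome receptor of ocular albinism, Gpr152, Gpr179 and Gpr182, a receptor of endothelium. The differences of these 8 further genes ran from -0.53 for Gpr143 to 0.38 for Gpr182, and none was called.

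Partners of these receptors were described from lists made beside those of the receptors. Of 9 measured ligands and ligand enzymes, 4 were called toward DRG and none (0) toward SC, and the median difference was 0.48, against 31.8% and 9.69% called and a median of 0.18 over all genes. After quantile normalization the split was 2 against 1, and before the array scaling it was 1 against 1. Rarres2, which encodes the chemerin precursor that binds Gpr1, was the one called toward DRG on every scaling, with 352, 271 and 417 in DRG, 38.3, 73.6 and 62.4 in SC and a difference of 2.30 ± 0.23 (limma adjusted p = 4.37e-05). That probe set can detect several transcripts, and the remaining probe set of Rarres2 lay at -0.70 (limma adjusted p = 0.0874). Psap, which encodes prosaposin, a proposed ligand of Gpr37 and Gpr37l1, had 9371, 8032 and 8095 in DRG and 6764, 5411 and 5124 in SC. Its difference of 0.57 (limma adjusted p = 0.00434) was toward the tissue in which both receptors were lower, but it was not called on the other scalings, at 0.06 and 0.19. Gpr1 itself was not called, at -0.10 (limma adjusted p = 0.847), and not above the level.

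Of 18 measured partners and regulators, 10 were called toward DRG and 2 toward SC, and the median difference was 0.41, to be read against the same 31.8%, 9.69% and 0.18. Quantile normalization gave a split of 6 against 3, and signals before the array scaling one of 6 against 5. Rgs7 and Rgs7bp, the regulator that Gpr158 recruits and its anchor, were higher in DRG at 0.93 and 1.31 (limma adjusted p = 1.47e-05 and 1.61e-06) and stayed so at 0.44 and 0.72 after quantile normalization. Among the genes that end receptor signals, differences toward DRG were called on every scaling for the arrestin gene Arrb1, at 0.78, and for the receptor kinase genes Grk5 and Grk6, at 0.85 and 0.82. Grk3 was higher in SC at -0.62 (limma adjusted p = 0.00106), on a probe set of the same kind, and without such probe sets it was at -0.13 (limma adjusted p = 0.826). Ramp1, an accessory protein of the calcitonin family receptors, had the largest difference of the list, with 1303, 1213 and 1254 in SC and 83.6, 31.4 and 83.6 in DRG, at least 6.71-fold higher in SC (limma adjusted p = 2.39e-06). Its difference of -4.03 stayed called toward SC in every alternative setting, but its size there ranged from -4.38 to -1.65.

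The window of Gpr62 held CAGCTG in 2 copies, and that of Gpr37 held GGGCGG in 1, read on the other strand as ccgccc. For Gpr35, the window of the first start held CAGCTG in 1 copy and that of the second start held none of the motifs. That of Gpr173 held none of the motifs either. Over the windows of all annotated genes, the shares with a match were 16.5% for ACAAAG, 13% for CAGCTG, 4.84% for TAATTA and 32.7% for GGGCGG. Among the 13 windows of the genes called higher in SC, CAGCTG was found in 5, ACAAAG in 3, TAATTA in 0 and GGGCGG in 5. Among the 19 windows of the genes called higher in DRG, CAGCTG was found in 4, ACAAAG in 0, TAATTA in 1 and GGGCGG in 9. Windows of one gene can overlap, so these counts are descriptions and were not tested. A match is a run of letters and not evidence of binding.

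Which calls rest on single arrays was checked by leaving each array out in turn. The counts then ran from 12 to 16 genes toward DRG and from 12 to 13 toward SC. Gpr12 lost its call without DRG replicate 2, DRG replicate 3 or SC replicate 3 (limma adjusted p = 0.0548, 0.0567 and 0.0599), Gpr75 without DRG replicate 1, DRG replicate 3 or SC replicate 3 (0.0737, 0.0584 and 0.0586), and Gpr160 without SC replicate 1 or 2 (0.0599 for each). Gpr135 lost it without DRG replicate 1 or 3 or SC replicate 1 or 3 (0.1, 0.081, 0.104 and 0.0812), and Gpr45 without any array but DRG replicate 3 (0.0724 and 0.102 for DRG replicates 1 and 2, and 0.067, 0.102 and 0.15 for SC replicates 1 to 3). Gpr176 lost it without SC replicate 1 (0.0596) and Gpr137b without SC replicate 2 (0.0543). The other 21 of the 28 called genes kept their call with each array left out.

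Other settings ended calls of some of the same genes. The logarithm of the deposited ratio ended those of Gpr75, Gpr135, Gpr137b and Gpr45 (limma adjusted p = 0.0535, 0.0841, 0.0628 and 0.0508) besides that of Gpr101. A variance model without the intensity trend ended those of Gpr135, Gpr137b and Gpr176 (limma adjusted p = 0.0794, 0.0598 and 0.0579). Averaging over all probe sets of a gene ended those of Gpr19 and Gpr137b (limma adjusted p = 0.0532 and 0.0666) besides that of Gpr161, and leaving out probe sets that can detect several transcripts ended that of Gpr137b (limma adjusted p = 0.766).

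The arrays carried the tissues their labels name. All 8 markers of DRG sensory neurons were called higher in DRG, with sums of 34941 to 36016 in DRG and 649 to 791 in SC. Correlations of log2 signals over all probe sets were 0.966 to 0.97 within a tissue and 0.891 to 0.898 between tissues. All 5 measured markers of satellite glia and Schwann cells were higher in DRG, with sums of 21924 to 22752 in DRG and 4011 to 4777 in SC. Both of the 2 measured adipocyte markers were higher in DRG too, with sums of 519.8 to 749.8 against 101 to 306. Of 6 markers of meninges and fibroblasts 5 were higher in DRG, with sums of 19855 to 20864 in DRG and 7586 to 9281 in SC. Most of the SC sum came from Ptgds, which was not called, with a mean of 6879 there. Markers of skeletal muscle, of which 0 were called by limma and 0 had an unadjusted p under 0.05, varied between arrays of one tissue, with sums of 404 to 1547 in DRG and 430.2 to 1766 in SC. The part of sensory neurons, glia of the ganglion, fat or connective tissue in the differences of the Gpr genes called toward DRG was not tested.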

How the data were processed

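RNA of 3 DRG and 3 SC pools was hybridised to arrays of 45101 probe sets, of which 64 are controls. Per the submitters' processing notes the authors used MAS5 (version not given); how its signals became the deposited values is not given in the sources used here. The deposited values are linear ratios: within 1e-05, the 6 values of a probe set have a median of 1 in 91.8% of probe sets. They were read as the signal divided by an array factor and by the probe set's median. Because MAS5 writes steps of 0.1, the smallest multiplier that put the 6 values on whole steps was taken to give back the signal. Probe sets with a median under 1 (8.21% of all) were given a fixed divisor instead, unless they held the lowest deposited value. A signal was obtained for 45092 probe sets, among them all 91 Gpr ones. In a test on 18320 simulated probe sets, 98.2% were recovered exactly and 1.81% up to a factor common to all arrays. The simulation used the same array factors and left out probe sets dim enough for the fixed divisor, so it does not cover them. The authors' array factors were 84.5 to 89.5 for DRG and 110.5 to 112.6 for SC and were kept.

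limma 3.58.1 in R 4.3.3 (lmFit, eBayes with an intensity trend) was fitted on log2(signal + 16) of 45028 probe sets, two-sided. On simulated data of 45028 probe sets for this comparison, 70% of changes of 1 and 98% of changes of 2 on the log2 scale were called. The changes were added only to probe sets above the median signal, so these shares do not cover dim genes. Only 100 probe sets were changed at each size, far fewer than were called in the data. The adjusted p depends on that number, so these shares do not give the power of the comparison itself. The labels call the 3 pools of a tissue independent. The number of arrays limits the precision. Genes were named with the platform annotation, and all 59 matched RefSeq by Entrez identifier with no change of symbol. Named genes are the 12 largest called differences each way without overlap between tissues, the brightest of each role list, genes with probe sets called in opposite directions, and called ligands and partners. Of 18 adhesion receptors listed under older Gpr symbols, 0 were measured under them. Members, lists and tests were chosen with earlier results of these data known. Same-numbered arrays did not deviate together (correlations 0.00705, -0.00597 and 0.0555), so replicate numbers were not used as pairs. Alternatives were other pseudocounts, scalings, probe set choices, variance models and single arrays left out. Signals were recovered with numpy 2.4.6 and numba 0.67.0 in Python 3.11.15, tables were joined with pandas 2.3.3, and plots were drawn with matplotlib 3.10.9.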

Additional observations from a re-analysis of the deposited data

How the results depend on the processing

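Before the authors' array scaling, 11 Gpr probe sets were called toward DRG and 29 toward SC, in place of 19 and 17, and 20 genes were called toward SC in place of 13. With only probe sets above the median signal tested, 9 probe sets and 6 genes were called toward SC, fewer because fewer were tested. All other alternatives left these 4 counts within 1.5 times. Leaving out single arrays gave 15 to 22 probe sets and 12 to 16 genes toward DRG, and 16 to 19 probe sets and 12 to 13 genes toward SC. The replicate numbers do not pair the arrays; with the replicate block, 18 and 16 probe sets and 14 and 12 genes were called, without Gpr135 (limma adjusted p = 0.0544) and Gpr45 (0.0512).

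Of the 59 Gpr genes, 1 changed sign with quantile normalization and 11 without the array scaling, none of them called on the deposited scaling: Gpr137 in both, and Gpr4, Gpr31b, Gpr39, Gpr50, Gpr61, Gpr63, Gpr84, Gpr132, Gpr179 and Gpr183 in the latter. Among the genes followed through all settings, after quantile normalization Gpr137 was at -0.30, Pcsk1n at -0.30 and Gnb5 at -0.012, and before the array scaling Gpr137 was at -0.19, Pcsk1n at -0.090 and Arrb2 at -0.018. The mean of its probe sets put Gpr158 at 0.041, and Rarres2 was at -0.70 without x and s probe sets, which leaves a different probe set. The cause was not tested beyond these constructions. Signals near the level of genes not expected limit what can be said of dim members.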
